A study of Mus musculus with 15 samples.

Results

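The cell cycle genes measured here encode proteins that license and copy DNA, drive cells into mitosis and separate the chromosomes. The set is a list of 58 genes fixed by symbol. It was read in splenic regulatory T cells (Treg), the CD4 T cells that restrain immune responses and are defined by the transcription factor Foxp3. Each gene was represented by its brightest transcript cluster among those annotated to that gene alone, and all 58 genes were measured, of 19752 genes in all. Mean intensities of 26 of them lay below the median gene of the array (109) and 32 above it, and no filter on low intensity was used.

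The study compared 4 genotypes. RNA was hybridised to Mouse Gene 1.0 ST arrays of Affymetrix, whose probes lie along the whole length of a transcript. All mice were 6-week-old males that carried Foxp3EGFPCre, an allele that makes a green fluorescent Cre recombinase in Foxp3-expressing cells. The control group had this allele alone (4 arrays). N1c mice had R26N1c/N1c in addition (4 arrays), from which Cre switches on the active intracellular part of Notch1. The RBPJdel group carried RBPJfl/fl, which Cre turns into RBPJ∆/∆ (4 arrays) and so removes the DNA-binding partner through which active Notch1 drives transcription, and the N1c_RBPJdel group carried both R26N1c/N1c and RBPJ∆/∆ (3 arrays). Cre, and with it each alteration, was limited to cells with an active Foxp3 locus, and every array held cells of several mice pooled for sorting. After lysis of red blood cells, Treg were sorted for CD3, TCRbeta, CD4 and GFP and against markers of CD8 T, B and myeloid cells. The N1c_RBPJdel cells came from a FACSAria and all others from a MoFlo Sorter, so sorter and genotype cannot be told apart in any comparison with N1c_RBPJdel.

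Array medians lay between 107.1 and 117.2. Transcripts of 7 Treg markers summed to intensities between 22962 and 29601 on every array. Rbpj had mean intensities of 497 and 521 with RBPJ intact (control and N1c) and of 267 and 209 with it deleted (RBPJdel and N1c_RBPJdel). Hes1, a direct Notch target, stood at 626 in N1c and at 65.6, 65.2 and 78.3 in control, RBPJdel and N1c_RBPJdel, so both genes followed the labels. Levels in pooled cells cannot tell fewer cycling cells from less RNA per cycling cell.

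Most mature Treg rest outside the cycle, and a fraction divides. A cell that enters the cycle loads the Mcm2 to Mcm7 helicase at origins with the help of Cdc6 and Cdt1. E2F factors switch on genes of licensing and DNA synthesis. Mitotic genes are switched on later, by the MuvB complex with B-Myb and Foxm1. In resting cells the related DREAM complex keeps both waves silent. Mitotic transcripts are therefore commonly read as a measure of how many cells are dividing.

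In N1c Treg the cell cycle genes lay above control as a group, and the mitotic genes lay highest. The mean log2 difference of the 58 genes from the control mean was 0.50 ± 0.27 (SD, n = 4) in N1c, 0.33 ± 0.32 (n = 4) in RBPJdel and -0.08 ± 0.07 (n = 3) in N1c_RBPJdel, beside 0 ± 0.27 (n = 4) in control. The control arrays, which the labels number 2, 3, 4 and 5, stood at 0.23, 0.25, -0.26 and -0.21. The N1c arrays numbered 1, 2, 4 and 5 stood at 0.75, 0.62, 0.13 and 0.51. The RBPJdel arrays 1 to 4 stood at 0.42, 0.55, 0.49 and -0.15, and the N1c_RBPJdel arrays 1 to 3 at -0.08, -0.01 and -0.16. In each group that has an array numbered 4, that array was the lowest. N1c overlapped control only through N1c 4, which lay below control 2 and control 3, and the 3 N1c_RBPJdel arrays lay below all 4 N1c arrays.

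**Figure D1:**
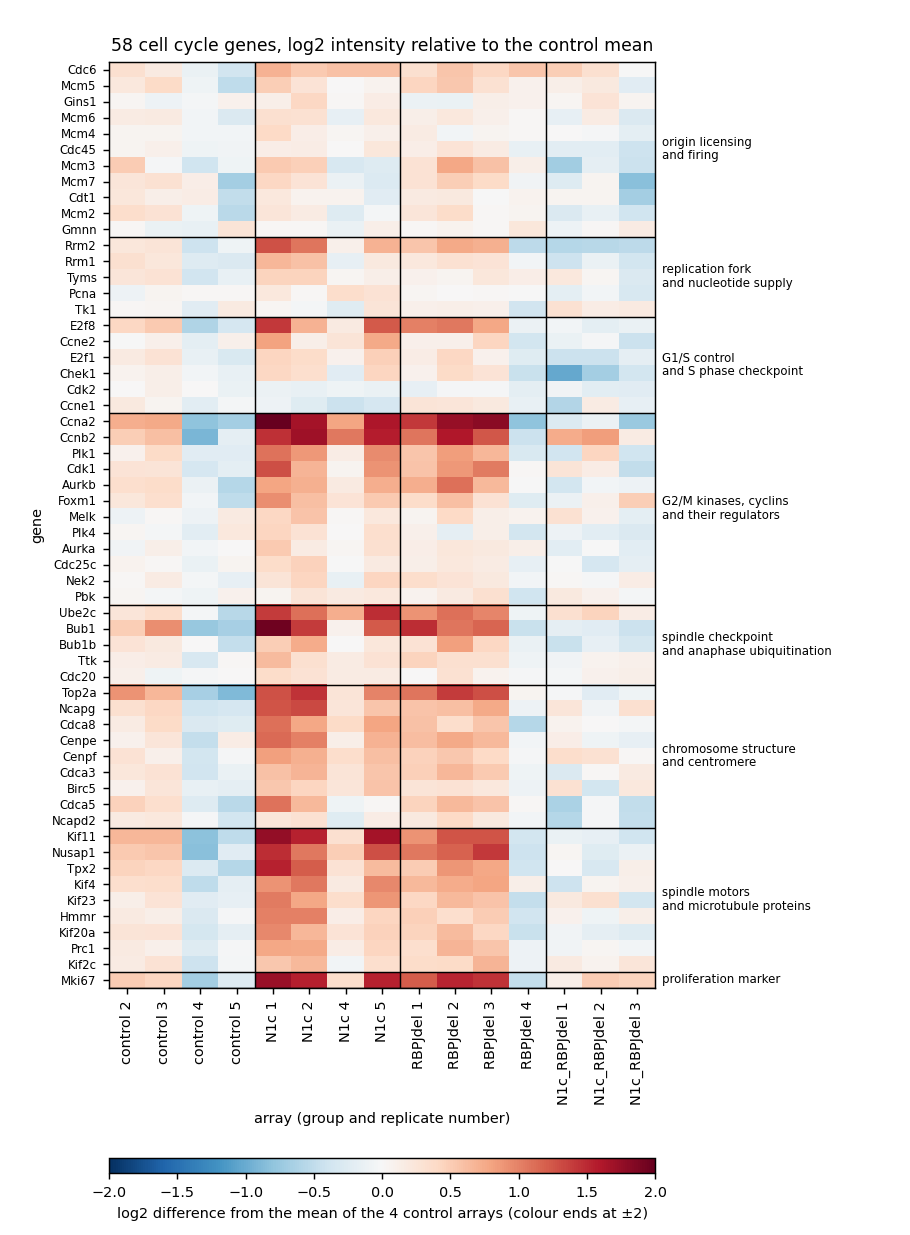
Colour map of the log2 difference of each of the 58 cell cycle genes (rows, by role) from the mean of the 4 control arrays, on each of the 15 arrays (columns), with red for higher and blue for lower. N1c 1, 2 and 5 and RBPJdel 1 to 3 have means over the 58 rows of 0.42 to 0.75 and N1c 4 of 0.13, while control 4, control 5, RBPJdel 4 and the N1c_RBPJdel arrays have means of -0.26 to -0.01, with single red rows such as Ccnb2 in N1c_RBPJdel.

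**Figure D2:**
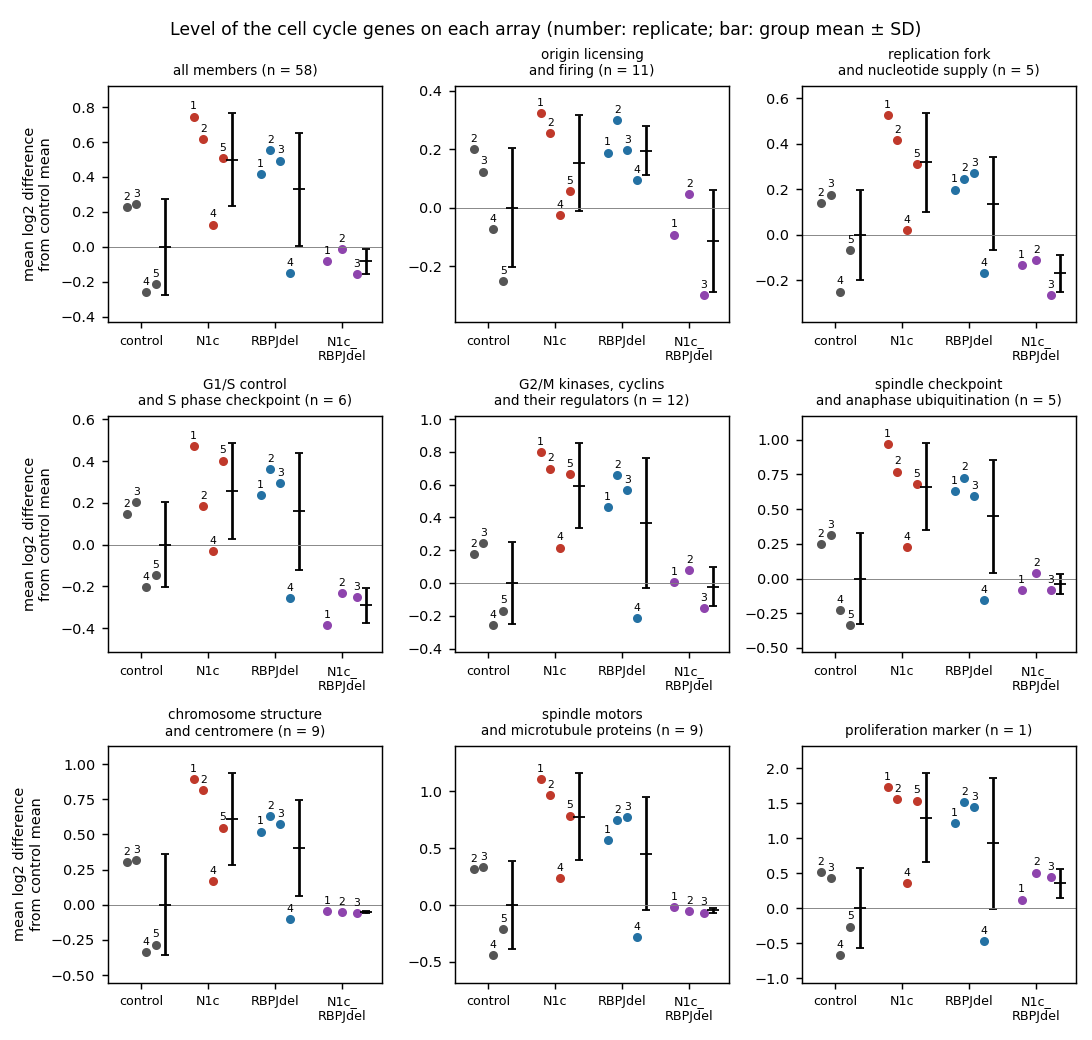
Mean log2 difference from the control mean per array (points, with the replicate number) for all 58 genes and for each role group, with bars for the group mean ± SD. For all 58 genes N1c stands at 0.50 ± 0.27 and N1c_RBPJdel at -0.08 ± 0.07, and the array numbered 4 is the lowest of its group in control, N1c and RBPJdel.

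The excess in N1c was also present between arrays of the same number. N1c exceeded control by 0.39, 0.39 and 0.72 (mean log2 over the 58 genes) at numbers 2, 4 and 5, with 51, 47 and 55 genes higher. RBPJdel exceeded control by 0.33, 0.25 and 0.11 at numbers 2, 3 and 4, with 51, 47 and 32 genes higher. N1c_RBPJdel stood below N1c by differences of -0.83 and -0.63 at numbers 1 and 2, with 55 genes lower at each. It stood below control by -0.24 and -0.40 at numbers 2 and 3, and below RBPJdel by -0.50, -0.57 and -0.65 at numbers 1 to 3.

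The genes also moved together from array to array within a genotype. After removal of the group means, the median correlation over 1653 gene pairs on the 15 arrays was 0.61, and 63.5% of pairs exceeded 0.5. For 2000 evenly spaced genes of the array the median was 0.02 and 11.2% exceeded 0.5. All pairs share the same 15 arrays. The 9 spindle genes were the tightest group, with a median of 0.86 and no pair below 0.66, followed by the chromosome group with 0.73. The licensing group had 0.52 and the fork and nucleotide group 0.30. Against the mean of the other members, Kif11 had the highest correlation (0.97), ahead of Ccna2, Bub1 and Mki67 (0.96 each). Pcna (-0.23), Gmnn (-0.20), Gins1 (-0.01), Cdt1 (0.30) and Cdc6 (0.37) did not follow the rest. The members that followed the others most closely were also among those with the widest changes, so a gene such as Kif11 or Ccna2 had a large difference between groups and a large spread within them.

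Promoters of these genes carry the elements through which the 2 waves are switched. A CHR (cell cycle genes homology region, TTTGAA on either strand) is bound by MuvB and DREAM and is often preceded by CCAAT boxes, which bind NF-Y. Windows from 250 bases before to 50 after a start were taken from RefSeq (GRCm38.p6), and 47 of the 58 genes had one. A CHR was present in 25 of these 47 (53.2%), against 20.2% of 27025 genes, and a CHR with a CCAAT box (CCAAT, either strand) in 23 (48.9%), against 7.97%. An E2F motif (TTTGGCG or TTTCCCG, either strand) was present in 13 (27.7%), against 5.55%. The motif GGCGGGA, whose reverse strand can overlap TTTCCCG, was present in 12 (25.5%), against 12.7%. CHR matches were frequent in spindle genes (6 of 7 windows), chromosome genes (7 of 9) and checkpoint genes (4 of 5), and rarer in licensing genes (2 of 8) and fork and nucleotide genes (0 of 5). E2F matches were in 6 of 8 licensing windows. A match is a string of letters and not a measured binding site.

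The sequences below are the 120 bases before the start of 7 of the cell cycle genes, 5′ to 3′ on the strand of the gene. CCAAT boxes, CHR and GGCGGGA motifs on either strand are in capitals. Ube2c (chr2:164769809-164769928, plus strand), Kif11 (chr19:37376262-37376381, plus), Top2a (chr11:99024190-99024309, minus) and Cdk1 (chr10:69352913-69353032, minus) show the mitotic layout of 1 or more CCAAT boxes ahead of a CHR close to the start. The mitotic cyclin gene Ccnb2, not printed, has CCAAT boxes at -87, -54 and -21 and no CHR in this stretch. Its CHR matches begin at -167 and at 5 relative to the start. Mcm5 (chr8:75109389-75109508, plus) shows a replication gene with CCAAT boxes and GGCGGGA and no CHR. It passed no test, and its E2F match at -148 lies outside the stretch. Cdc6 (chr11:98908031-98908150, plus) and Chek1 (chr9:36726659-36726778, minus) are shown because they passed the test without any of these letters in this stretch, and their E2F matches lie elsewhere in the window.
Ube2c: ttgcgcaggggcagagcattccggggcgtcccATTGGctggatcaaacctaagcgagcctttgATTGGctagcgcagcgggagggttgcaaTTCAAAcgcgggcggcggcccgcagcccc
Kif11: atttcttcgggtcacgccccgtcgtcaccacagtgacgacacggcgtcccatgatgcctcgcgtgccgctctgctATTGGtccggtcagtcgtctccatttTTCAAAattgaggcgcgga
Top2a: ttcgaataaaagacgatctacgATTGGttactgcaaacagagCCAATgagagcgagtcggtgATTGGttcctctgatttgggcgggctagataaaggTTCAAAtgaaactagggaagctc
Cdk1: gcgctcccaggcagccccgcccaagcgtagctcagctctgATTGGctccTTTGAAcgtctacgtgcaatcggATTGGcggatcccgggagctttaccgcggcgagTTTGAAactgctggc
Mcm5: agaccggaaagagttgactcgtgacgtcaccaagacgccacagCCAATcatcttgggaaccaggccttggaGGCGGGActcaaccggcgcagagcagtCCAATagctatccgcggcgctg
Cdc6: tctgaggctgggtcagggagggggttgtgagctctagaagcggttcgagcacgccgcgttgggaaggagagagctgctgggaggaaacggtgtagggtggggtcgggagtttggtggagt
Chek1: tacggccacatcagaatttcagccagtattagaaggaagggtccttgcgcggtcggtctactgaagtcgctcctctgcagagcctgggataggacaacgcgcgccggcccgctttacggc

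The 23 genes with both a CHR and a CCAAT box had a median log2 change of 0.73 in N1c against control, and the other 24 with a window had 0.26. In N1c_RBPJdel against N1c the medians were -0.69 and -0.40. Past the threshold there, 6 of the 23 fell and 7 of the 24, beside 4.65% of all genes. Set against control, N1c_RBPJdel had medians of -0.03 for the 23 and -0.18 for the 24. Roles and motifs overlap, since CHR matches lie mostly in the mitotic groups. In the spindle group, with 6 CHR matches in 7 windows, the median change in N1c was 0.76, and in the licensing group, with 2 in 8, it was 0.13.

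With active Notch1, 56 of the 58 genes had a mean above control, against 47.8% of all genes, and their median log2 change was 0.40, against -0.01 over all genes. Ube2c, Cdc6 and Cenpf rose past the threshold (adjusted p below 0.05 over all 19752 genes), which is 3 of 58, against 0.937% of all genes called higher. None fell, against 0.714%. At an unadjusted p below 0.05, 35 of 58 were higher, against 4.09%, and none was lower, against 4.12%. In 9 genes every N1c array exceeded every control array, against 2.9% of all genes: Cdc6, Ccne2, Ccna2, Ccnb2, Cdc20, Ube2c, Cenpf, Birc5 and Kif23. The reverse was seen in none, against 2.83%. The role groups were ordered from licensing (median 0.13) through the fork and nucleotide group (0.26), G1/S control (0.29), checkpoint genes (0.37), G2/M kinases and cyclins (0.44) and chromosome genes (0.62) to spindle genes (0.76), with Mki67 at 1.29. P-values here measure how much these pooled samples varied, part of which may be technical.

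The number of calls depended on how the arrays were treated. Over all genes, N1c and control arrays of the same number deviated together. Over the 58 genes, RBPJdel and control arrays of the same number did so as well. The labels do not say what the numbers stand for, so pairing by number was inferred from these data. A block chosen from the same data that it is fitted to can make p too small. With the number as a block 26 of the 58 genes rose, or 21 in a fit of numbers 2, 4 and 5 of these 2 groups alone. The 21 were all among the 26. Over all 19752 genes the same fits called 285 and 217 higher, in place of 185 without a block. Without a block the count was 0 without N1c 1 or N1c 5, 1 without control 4, control 5 or N1c 2, 7 without N1c 4 and 9 without RBPJdel 4. It was 1 with each array centred on its median. Over all genes 138 were called higher without N1c 1, 159 without N1c 5, 134 without control 4 and 169 without control 5. The number was 164 without N1c 2, 164 without N1c 4, 201 without RBPJdel 4 and 164 with median centring.

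In RBPJdel Treg no member passed the test. Means of 54 of 58 genes were above control, against 58.8% of all genes, with a median of 0.26, against 0.03. No gene was called in either direction by limma, against 0.0354% of all genes called higher and 0.0759% called lower. At an unadjusted p below 0.05, 15 were higher, against 2.63%, and none lower, against 4.11%. The arrays of RBPJdel and control overlapped in all 58 genes, while 2.81% of all genes had RBPJdel wholly above control and 3.08% wholly below. The smallest p belonged to Cdc6 (0.46, SE 0.14, adjusted p = 0.474) and Ube2c (0.73, SE 0.24, adjusted p = 0.529). RBPJdel 4 stood apart from the other 3 RBPJdel arrays, as with Ccna2, at 75.5 against 352 to 462. This comparison and that of N1c share the 4 control arrays.

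In N1c_RBPJdel Treg the cell cycle genes lay below N1c, with the smallest p for the S phase genes Chek1 and Rrm2 and the largest difference for the cyclin gene Ccna2. The median log2 change against N1c was -0.54, against 0.02 over all genes, and 3 of 58 means were higher, against 53.5% of all genes. Of the 58 genes 17 fell past the threshold, against 4.65% of all genes called lower, and none rose, against 4.58%. By p these were Chek1, Rrm2, E2f1, Pcna, Cdc45, Kif11, Ccne2, Aurka, Kif4, Ccna2, Plk4, Cenpe, Kif20a, Ube2c, Cdc25c, Rrm1 and Bub1b. At an unadjusted p below 0.05, 41 were lower, against 12.4%, and none was higher, against 14%. In 31 genes all 3 N1c_RBPJdel arrays lay below all 4 N1c arrays, against 8.42%, and in none above them, against 7.95%. G1/S genes (median -0.69), checkpoint genes (-0.69), chromosome genes (-0.68) and spindle genes (-0.75) differed most, and licensing genes least (-0.26). This comparison and that of N1c with control use the same 4 N1c arrays, so a high N1c value enters both with opposite sign.

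Set against control instead, N1c_RBPJdel had a median change of the cell cycle genes of -0.09, against 0.02 over all genes. This value ranged from -0.16 without control 4 to 0.03 without control 3, and was -0.28 with the replicate block. Over all arrays 21 of 58 means were higher, against 53.7% of all genes. Chek1 was the only gene that fell, 1 of 58 against 5.12% of all genes, and none rose, against 3.77%. The arrays did not overlap for Cdc45, Rrm2 and Chek1, all lower, against 9.57% of all genes, and in none was N1c_RBPJdel wholly above control, against 9.11%. Against RBPJdel the median was -0.32, 3 of 58 means were higher, against 47.8%, and Chek1 again was the only gene that fell, against 0.967% called lower; none rose, against 1.32%. At an unadjusted p below 0.05, 4 genes were lower than control, against 13.2%, and none higher, against 13.1%. By the same measure 26 were lower than RBPJdel, against 11.1%, and none higher, against 10.2%. N1c_RBPJdel arrays lay wholly below RBPJdel in 11 genes, against 8.45%, and wholly above in 1, against 7.38%. The interaction, which is the log2 effect of active Notch1 with RBPJ deleted minus that with RBPJ intact, was above 0 in 2 of 58 genes, against 48.7% of all genes, with a median of -0.79, against -0.01. Rrm2, Ube2c and Kif4 passed the test in it, 3 of 58, against 0.521% called lower over all genes, and none was positive past the threshold, against 0.319%. An unadjusted p below 0.05 went with a negative sign in 43 genes, against 6.25%, and with a positive sign in none, against 6.67%.

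These counts moved when arrays were left out. Against N1c, 4 genes were lower without N1c 1, N1c_RBPJdel 1 or N1c_RBPJdel 3, 6 without N1c 2, 11 without RBPJdel 3, 28 without RBPJdel 4 and 31 without N1c 4. Over all genes 918 were lower with all arrays. In the order named, the omissions left 486, 420, 803, 486, 779, 970 and 801 lower over all genes. Against control the Chek1 call was lost without control 2, control 3, control 4 or N1c_RBPJdel 1. Over all genes 1012 were lower with all arrays, and 446, 432, 535 and 272 without each of these in turn. Against RBPJdel the count was 0 without control 3, control 4, N1c 1, N1c 2, RBPJdel 1, RBPJdel 2, RBPJdel 3 or N1c_RBPJdel 1, 2 without N1c 5, 5 without N1c_RBPJdel 2 and 8 without RBPJdel 4. Over all genes 191 were lower with all arrays. Without the arrays that gave 0, in the order named, 123, 132, 168, 154, 35, 31, 27 and 15 were. Without N1c 5, N1c_RBPJdel 2 and RBPJdel 4, in turn, 278, 985 and 206 were. The interaction had 0 without control 4, control 5, N1c 1, N1c 2, N1c 5, RBPJdel 1, RBPJdel 2, RBPJdel 3, N1c_RBPJdel 1 or N1c_RBPJdel 3, 6 without N1c_RBPJdel 2, 10 without N1c 4 and 25 without RBPJdel 4. Over all genes 103 were lower in it with all arrays. Without the arrays that gave 0, in the order named, 67, 80, 69, 79, 98, 64, 65, 61, 66 and 80 were. Without N1c_RBPJdel 2, N1c 4 and RBPJdel 4, in turn, 250, 100 and 148 were.

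Single members differed in how far they rested on 1 array. In N1c_RBPJdel against N1c, Chek1 and Rrm2 kept their calls whichever array was left out. E2f1 lost its call only without N1c_RBPJdel 1, and Pcna only without N1c_RBPJdel 3. Cdc45 lost its call without N1c 1, N1c 2 or N1c_RBPJdel 3, and Aurka without N1c 1, N1c_RBPJdel 1 or N1c_RBPJdel 3. Kif11 and Ccna2 lost theirs without N1c 1, N1c 2, N1c_RBPJdel 1 or N1c_RBPJdel 3, Ccne2 without N1c 1, N1c 5, N1c_RBPJdel 1 or N1c_RBPJdel 3, and Kif4 without N1c 1, N1c 2, N1c 5 or N1c_RBPJdel 1. The calls of Plk4, Cenpe, Kif20a, Ube2c, Cdc25c, Rrm1 and Bub1b were each lost under 6 to 11 of the 15 omissions, always including N1c 1, N1c 2, N1c_RBPJdel 1 and N1c_RBPJdel 3. In the interaction the calls of Ube2c, Kif4 and Rrm2 were lost under 10, 10 and 12 omissions, and were kept without N1c 4, without RBPJdel 4 and without N1c_RBPJdel 2.

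Markers of other cell types moved in the same comparisons. Over all genes 4.58% were called higher and 4.65% lower in N1c_RBPJdel against N1c. Set against control, 3.77% were called higher and 5.12% lower in N1c_RBPJdel. In N1c_RBPJdel against N1c, 3 of 7 B cell markers, 2 of 6 plasma cell markers, 3 of 9 erythroid markers, 4 of 10 neutrophil markers, 2 of 11 macrophage markers, 1 of 7 dendritic cell markers and 1 of 7 NK cell markers rose, 1 erythroid marker (Tfrc) fell, and none of 2 CD8 T cell or 4 platelet markers was called. Against control, 3 B cell, 3 plasma cell, 3 erythroid, 3 neutrophil and 1 macrophage markers rose, and Tfrc fell. The erythroid list summed to between 1007 and 1930 in N1c_RBPJdel, 985 and 1099 in control, 1024 and 1178 in N1c and 974 and 1144 in RBPJdel. The neutrophil list summed to between 658 and 763 in N1c_RBPJdel, 489 and 552 in control, 476 and 601 in N1c and 515 and 590 in RBPJdel. The B cell list summed to between 677 and 982 in N1c_RBPJdel, 593 and 670 in control, 542 and 603 in N1c and 675 and 784 in RBPJdel. The sums of the plasma cell list (1535 to 1900 in N1c_RBPJdel and 1255 to 2232 elsewhere), the macrophage list (759 to 888 and 674 to 908) and the dendritic cell list (441 to 506 and 408 to 491) overlapped between groups, as did those of the CD8 T, NK and platelet lists. No marker was at 0 on any array, since array intensities have a background. Car1, an erythroid carbonic anhydrase, read 852, 400.0 and 137 in N1c_RBPJdel, and its group means elsewhere were 60.2 (control), 59.4 (N1c) and 62.3 (RBPJdel). In N1c against control only the granzyme gene Gzma rose among these markers, from 28.4 to 52.9, beside 0.937% of all genes. In RBPJdel against control none was called, against 0.0354% of all genes higher and 0.0759% lower. The part of such cells in the cell cycle results was not tested.

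**Figure D3:**
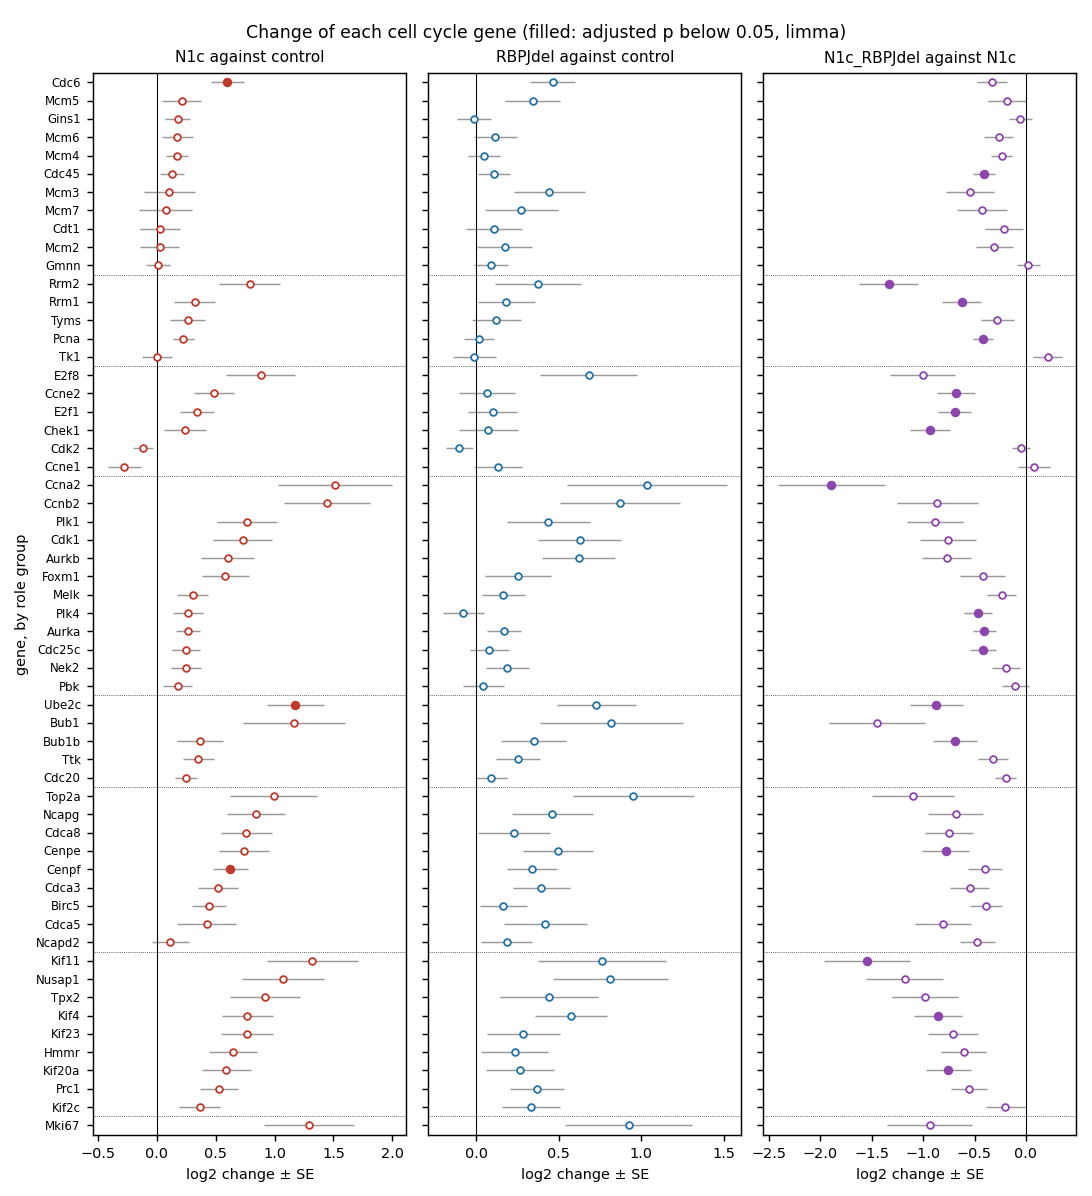
Log2 change ± SE of each of the 58 genes, by role, for the N1c and RBPJdel groups each set against control and for N1c_RBPJdel set against N1c, with filled points for adjusted p below 0.05. In the first panel 56 points lie above 0 with 3 filled, in the second 54 lie above 0 with none filled, and in the third 55 lie below 0 with 17 filled.

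Among the genes that license and fire replication origins, Cdc6, the loader of the Mcm helicase, stood apart. Cdc6 read 88.4, 80.7, 64.8 and 54.6 in control, 115, 102, 107 and 106 in N1c, 88.4, 104, 94.9 and 104 in RBPJdel and 99.9, 88.4 and 70.3 in N1c_RBPJdel, in the order of the array numbers above. Such single values are linear intensities, and changes, differences, SE and interactions are on the log2 scale. Every N1c array exceeded every control array, and the change was 0.60 (SE 0.14, a 1.51-fold rise, adjusted p = 0.0318). The call was lost without any of control 4, control 5 or the 4 N1c arrays, each left out singly, and with the block of numbers 2, 4 and 5 (adjusted p = 0.0624). None of the helicase subunits it loads passed the test. Mcm4 had the smallest p of them and read 548, 543, 505 and 505 in control, 695, 578, 539 and 563 in N1c, 587, 508, 547 and 533 in RBPJdel and 529.9, 519 and 459 in N1c_RBPJdel. N1c 1, N1c 2 and N1c 5 read above all control arrays and N1c 4 among them, and the 3 N1c_RBPJdel arrays lay below all N1c arrays. Neither difference passed (N1c change 0.17, SE 0.09, adjusted p = 0.759, and -0.24 in N1c_RBPJdel against N1c, adjusted p = 0.151). Changes of Mcm2, Mcm3, Mcm5, Mcm6 and Mcm7 in N1c lay between 0.02 and 0.21. In N1c_RBPJdel these 5 lay between -0.54 and -0.18 relative to N1c, and Mcm3 was -0.88 relative to RBPJdel (SE 0.23, adjusted p = 0.0562).

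Cdc45, which joins the Mcm helicase when an origin fires, read 137, 140.2, 124 and 125 in control, 143, 146, 132 and 153 in N1c, 145, 158, 148 and 119 in RBPJdel and 114, 113 and 99.1 in N1c_RBPJdel. All 3 N1c_RBPJdel arrays lay below every other array. It fell by 0.40 against N1c (SE 0.11, adjusted p = 0.0252), and the differences from control (-0.28, adjusted p = 0.11) and RBPJdel (-0.38, adjusted p = 0.0641) did not pass. Gmnn, which encodes the licensing inhibitor geminin, was the least changed of the group. It read 44.1, 39.5, 38.9 and 51.6 in control, 44.1, 44.1, 39.5 and 46.7 in N1c, 44.1, 45.4, 44.1 and 50.4 in RBPJdel and 40.5, 44.1 and 48.5 in N1c_RBPJdel, with full overlap and an N1c change of 0.01 (SE 0.10). Cdt1, the partner of Cdc6, and Gins1, a helicase cofactor, had N1c changes of 0.03 and 0.17, neither past the test.

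At the replication fork, Rrm2 differed most. It encodes the small subunit of ribonucleotide reductase, the enzyme that makes deoxynucleotides, and this subunit is present mainly in S phase. Rrm2 read 201, 205, 129 and 161 in control, 413, 361, 184 and 277 in N1c, 251, 289, 281 and 119 in RBPJdel and 115, 117 and 119 in N1c_RBPJdel. The 3 N1c_RBPJdel arrays were nearly equal and below all control and N1c arrays, and RBPJdel 4 read between them. Its change was 0.79 in N1c (SE 0.26, adjusted p = 0.227, or 0.00919 with the block of numbers 2, 4 and 5). It fell by 1.34 in N1c_RBPJdel against N1c (SE 0.28, 2.52-fold lower, adjusted p = 0.00803), and the interaction was -1.71 (SE 0.39, adjusted p = 0.0469). The large subunit Rrm1 read 556, 525, 373 and 365 in control, 707, 670.2, 400.3 and 509 in N1c, 518, 554, 538 and 429 in RBPJdel and 335, 407 and 347 in N1c_RBPJdel. N1c_RBPJdel overlapped N1c only through N1c 4, and Rrm1 fell by 0.62 (SE 0.19, adjusted p = 0.0455).

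Pcna, the sliding clamp of the DNA polymerases, did not follow the other members between arrays. It read 2076, 2323, 2281 and 2258 in control, 2596, 2281, 2862 and 2735 in N1c, 2296, 2244, 2281 and 2231 in RBPJdel and 1955, 2149 and 1785 in N1c_RBPJdel. N1c 2 fell within the control range and the other 3 N1c arrays above it (change 0.22, SE 0.09, adjusted p = 0.411). All N1c_RBPJdel arrays were below all N1c arrays, and Pcna fell by 0.41 (SE 0.10, adjusted p = 0.0142). Tk1, the thymidine salvage kinase, read 197, 201, 166 and 220.3 in control, 201, 189.5, 164 and 233 in N1c, 209.7, 212, 210.3 and 150.1 in RBPJdel and 242, 216 and 221 in N1c_RBPJdel. Its N1c change was 0.00 (SE 0.13), and it was the only member whose N1c_RBPJdel arrays all exceeded the RBPJdel arrays (0.23, adjusted p = 0.37). Tyms, thymidylate synthase, had log2 differences of 0.26 in N1c and -0.28 in N1c_RBPJdel against N1c, neither past the test.

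The genes of the G1/S transition split. Ccne2, an E-type cyclin that activates Cdk2, read 62.4, 67.3, 54.4 and 67.3 in control, 109, 67.8, 75.1 and 106 in N1c, 67.3, 66.8, 84.7 and 48.5 in RBPJdel and 57.1, 61.5 and 46.3 in N1c_RBPJdel. All N1c arrays were above all control and N1c_RBPJdel arrays, with a change of 0.48 against control (SE 0.17, adjusted p = 0.279), and Ccne2 fell by 0.68 in N1c_RBPJdel against N1c (SE 0.19, adjusted p = 0.029). Its paralogue Ccne1 and their kinase Cdk2 were the only members with means below control in N1c (-0.28 and -0.12, adjusted p = 0.693 and 0.912). E2f1, an activator of S phase genes, read 103, 111, 81.8 and 73.4 in control, 123, 117, 96.9 and 127 in N1c, 101, 122, 97.0 and 76.7 in RBPJdel and 67.3, 67.4 and 80.0 in N1c_RBPJdel. The N1c_RBPJdel arrays lay below all N1c arrays, and E2f1 fell by 0.69 (SE 0.16, adjusted p = 0.0132). E2f8, a repressor that E2F factors induce, read 83.4, 90.2, 41.0 and 49.6 in control, 166, 101, 71.2 and 147 in N1c, 126, 130.3, 107 and 57.6 in RBPJdel and 60.3, 54.8 and 57.3 in N1c_RBPJdel. Control 2 and control 3 read above N1c 4, and neither its N1c change of 0.88 (SE 0.29, adjusted p = 0.224) nor its difference of -1.003 in N1c_RBPJdel against N1c (SE 0.32, adjusted p = 0.0546) passed.

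Chek1, the checkpoint kinase that restrains mitosis while DNA is copied, was the only member called lower in N1c_RBPJdel against each of the other 3 groups. Chek1 read 97.1, 100.2, 89.1 and 83.2 in control, 123, 117, 78.6 and 124 in N1c, 97.6, 119.8, 112 and 67.9 in RBPJdel and 45.6, 57.4 and 71.1 in N1c_RBPJdel. The N1c_RBPJdel arrays lay below all control and N1c arrays, and RBPJdel 4 lay within their range. Chek1 fell by 0.93 against N1c (SE 0.19, adjusted p = 0.0073), by 0.69 against control (SE 0.19, 1.62-fold lower, adjusted p = 0.0361) and by 0.77 against RBPJdel (SE 0.19, adjusted p = 0.0474). The 3 comparisons share the N1c_RBPJdel arrays, and the call against RBPJdel was lost without any of control 2 to 4, N1c 1, N1c 2, RBPJdel 1 to 3 or N1c_RBPJdel 1. In N1c the change was 0.24 (SE 0.18, adjusted p = 0.946).

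The cyclins of G2 and mitosis had the largest changes of all members in N1c, and neither passed the test there. Ccna2, cyclin A2, which drives S phase and mitotic entry, read 219, 225, 76.2 and 82.4 in control, 526, 419.8, 229 and 408 in N1c, 352, 445, 462 and 75.5 in RBPJdel and 109.8, 123 and 78.9 in N1c_RBPJdel. Control 4 and RBPJdel 4 read below the 3 N1c_RBPJdel arrays and control 5 among them, and all N1c arrays were above all control arrays. Its N1c change was 1.51 (SE 0.48, adjusted p = 0.193, or 0.00491 with the block of numbers 2, 4 and 5), and it fell by 1.89 in N1c_RBPJdel against N1c (SE 0.52, 3.71-fold lower, adjusted p = 0.0316). Ccnb2, a B-type cyclin of mitosis, read 303, 327, 114 and 191 in control, 592, 697, 449.9 and 643 in N1c, 451, 657, 512 and 159 in RBPJdel and 362, 386 and 243 in N1c_RBPJdel. N1c did not overlap control, and the change was 1.45 (SE 0.36, adjusted p = 0.0578, or 0.000568 with that block). Its mean in N1c_RBPJdel was above control (0.59, SE 0.39, adjusted p = 0.36). Cdk1, the kinase that both cyclins activate, had differences of 0.73 in N1c and -0.76 in N1c_RBPJdel against N1c, neither past the test.

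Among the other mitotic kinases and their regulators, 3 fell in N1c_RBPJdel against N1c, where 4.65% of all genes did. Cdc25c, the phosphatase that removes the brake from Cdk1, read 40.5, 39.3, 35.1 and 40.1 in control, 49.8, 53.1, 38.4 and 43.6 in N1c, 42.1, 44.8, 43.2 and 34.4 in RBPJdel and 38.5, 30.6 and 34.3 in N1c_RBPJdel, and fell by 0.42 (SE 0.13, adjusted p = 0.0451). Its N1c_RBPJdel and N1c arrays overlapped at N1c 4. Plk4, which starts centriole duplication, read 216, 203, 182 and 242 in control, 281, 255, 211 and 265 in N1c, 226, 185, 229 and 163 in RBPJdel and 195, 181 and 171 in N1c_RBPJdel, and fell by 0.47 (SE 0.14, adjusted p = 0.0383). Aurka, the kinase of spindle poles, read 106, 121, 108 and 113 in control, 161, 125, 115 and 140.3 in N1c, 122, 131, 129 and 121 in RBPJdel and 96.9, 112 and 97.1 in N1c_RBPJdel, and fell by 0.40 (SE 0.11, adjusted p = 0.0299). For Plk4 and Aurka no N1c_RBPJdel array reached any N1c array. Pbk, a mitotic kinase, had the smallest N1c change of the group. It read 53.2, 50.2, 48.9 and 55.0 in control, 53.6, 61.9, 58.9 and 60.2 in N1c, 54.6, 58.5, 64.6 and 39.4 in RBPJdel and 59.0, 54.8 and 50.1 in N1c_RBPJdel (N1c change 0.18, SE 0.12, adjusted p = 0.912). The polo kinase Plk1 had an N1c difference of 0.76, Aurkb of the chromosomal passenger complex of 0.60 and the transcription factor Foxm1, which switches on the mitotic wave, of 0.58. The kinases Nek2 and Melk had 0.24 and 0.30. None of these 5 passed without the block, and Plk1 did with the block of numbers 2, 4 and 5 (adjusted p = 0.0277).

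Ube2c, the ubiquitin-conjugating enzyme with which the anaphase-promoting complex marks cyclins for destruction, was the member with the smallest p in N1c. Ube2c read 123, 134, 102 and 71.1 in control, 276, 223, 173 and 292 in N1c, 196, 224, 207 and 98.4 in RBPJdel and 131, 142 and 115 in N1c_RBPJdel. Every N1c array exceeded every control and every N1c_RBPJdel array, while RBPJdel 4 fell inside the control range. It rose by 1.18 in N1c (SE 0.24, 2.26-fold, adjusted p = 0.0127), a call that was lost without N1c 1 or without N1c 5 (highest adjusted p = 0.0558). It fell by 0.87 in N1c_RBPJdel against N1c (SE 0.26, adjusted p = 0.0432), and the interaction was -1.60 (SE 0.35, adjusted p = 0.041). The printed Ube2c promoter holds 2 CCAAT boxes ahead of its CHR.

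The spindle checkpoint kinase Bub1 and its relative Bub1b hold back anaphase until chromosomes are attached. Bub1 read 54.9, 74.7, 23.0 and 24.5 in control, 149.7, 103, 41.6 and 91.7 in N1c, 109, 82.2, 87.7 and 28.6 in RBPJdel and 34.3, 33.3 and 29.1 in N1c_RBPJdel. Control 2 and control 3 read above N1c 4, and its N1c change of 1.17 (SE 0.43) had an adjusted p of 0.325, or 0.0114 with the block of numbers 2, 4 and 5. Bub1b read 103, 98.3, 86.6 and 61.5 in control, 121, 144, 86.1 and 100.4 in N1c, 105, 152, 115 and 78.0 in RBPJdel and 63.1, 76.1 and 67.1 in N1c_RBPJdel. All N1c_RBPJdel arrays lay below all N1c arrays, and Bub1b fell by 0.69 (SE 0.21, adjusted p = 0.0498). The checkpoint kinase Ttk and the anaphase activator Cdc20 had N1c changes of 0.35 and 0.25, and neither passed.

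Of the chromosome genes, Cenpf rose in N1c and Cenpe fell in N1c_RBPJdel against N1c. Cenpf, a kinetochore protein, read 55.8, 49.0, 35.4 and 45.1 in control, 80.7, 75.1, 58.4 and 69.7 in N1c, 62.7, 66.3, 60.0 and 44.7 in RBPJdel and 58.2, 56.5 and 46.4 in N1c_RBPJdel. No control array reached an N1c array, and the rise was 0.62 (SE 0.15, 1.54-fold, adjusted p = 0.0418). This call was lost without any of control 3, control 4, control 5, N1c 1, N1c 2, N1c 5, RBPJdel 1, RBPJdel 2, RBPJdel 3 or N1c_RBPJdel 1, and was kept with the block of numbers 2, 4 and 5 (adjusted p = 0.0197). Cenpe, the kinetochore motor, read 40.9, 45.1, 27.6 and 42.6 in control, 84.3, 77.3, 41.8 and 62.2 in N1c, 58.6, 65.1, 60.3 and 37.0 in RBPJdel and 41.9, 36.3 and 34.2 in N1c_RBPJdel. Its N1c_RBPJdel arrays overlapped N1c only at N1c 4. It fell by 0.78 (SE 0.23, adjusted p = 0.0411), beside a change of 0.74 in N1c against control (adjusted p = 0.115, or 0.0126 with that block).

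Cdca8, a subunit of the chromosomal passenger complex, read 78.3, 91.1, 57.2 and 59.4 in control, 149.8, 121, 91.1 and 121 in N1c, 105, 89.7, 103 and 47.1 in RBPJdel and 74.0, 70.2 and 68.1 in N1c_RBPJdel. Ncapg, a condensin subunit, read 86.5, 92.1, 52.2 and 54.7 in control, 165, 173, 81.7 and 102 in N1c, 103, 105, 117 and 64.4 in RBPJdel and 82.0, 65.9 and 85.9 in N1c_RBPJdel. In both, control and N1c met only at the lowest N1c array, N1c 4. Their N1c changes of 0.76 (SE 0.22) and 0.85 (SE 0.25) had adjusted p of 0.118 and 0.126, and of 0.00864 and 0.00372 with the block of numbers 2, 4 and 5. Ncapd2, another condensin subunit, read 295, 300.3, 255 and 202 in control, 308, 322, 219 and 288 in N1c, 299, 341, 298 and 251 in RBPJdel and 174, 255 and 188 in N1c_RBPJdel. It was the least changed of the group in N1c (0.11, SE 0.16, adjusted p = 1). Top2a, the topoisomerase that untangles sister chromatids, had differences of 0.99 in N1c (adjusted p = 0.328, or 0.0308 with that block) and 0.95 in RBPJdel (adjusted p = 0.628). Birc5 of the passenger complex, the cohesin regulator Cdca5 and the mitotic gene Cdca3 had N1c differences of 0.44, 0.42 and 0.52, and in N1c_RBPJdel against N1c of -0.39, -0.81 and -0.55. None of these passed, and Cdca3 did with that block (adjusted p = 0.0182).

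All 9 spindle genes had means above control in N1c, against 47.8% of all genes, and below N1c in N1c_RBPJdel. Of the 9, 3 fell past the threshold in N1c_RBPJdel against N1c, beside 4.65% of all genes. Kif11, the motor that pushes spindle poles apart, read 177, 177, 63.7 and 78.8 in control, 378, 324, 139.9 and 355 in N1c, 209, 268, 269 and 86.5 in RBPJdel and 102, 100.2 and 84.8 in N1c_RBPJdel. The 3 N1c_RBPJdel arrays lay below all N1c arrays, above control 4 and control 5 and around RBPJdel 4. It fell by 1.55 (SE 0.42, 2.93-fold lower, adjusted p = 0.0282), and its N1c change of 1.32 (SE 0.39) had an adjusted p of 0.129, or 0.0108 with the block of numbers 2, 4 and 5. Kif4, a chromosome-bound motor, read 33.8, 34.0, 18.8 and 23.6 in control, 49.7, 55.3, 30.1 and 51.8 in N1c, 41.8, 44.7, 45.9 and 29.0 in RBPJdel and 20.1, 27.7 and 28.8 in N1c_RBPJdel. Control 2 and control 3 were above N1c 4, and no N1c_RBPJdel array reached an N1c array. Kif4 fell by 0.85 (SE 0.23, adjusted p = 0.0311), its interaction was -1.43 (SE 0.32, adjusted p = 0.0459), and its N1c change was 0.77 (adjusted p = 0.11, or 0.00696 with that block).

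Kif20a, a motor of cytokinesis, read 125, 125, 81.6 and 92.0 in control, 203, 165, 125 and 144 in N1c, 142, 162, 139 and 76.5 in RBPJdel and 99.5, 92.2 and 87.3 in N1c_RBPJdel, and fell by 0.75 (SE 0.22, adjusted p = 0.0413). All its N1c_RBPJdel arrays were below its N1c arrays. Kif23, a motor of the central spindle, read 122, 136, 96.0 and 101 in control, 232, 192, 143 and 209 in N1c, 149.8, 176, 167 and 81.0 in RBPJdel and 129.7, 141 and 87.4 in N1c_RBPJdel. Prc1, which bundles microtubules there, read 80.9, 77.0, 59.9 and 70.4 in control, 123, 121, 79.4 and 96.4 in N1c, 90.3, 115, 105 and 66.9 in RBPJdel and 68.1, 73.4 and 69.3 in N1c_RBPJdel. Kif23 arrays did not overlap between N1c and control, and Prc1 arrays met at N1c 4. Their N1c changes of 0.76 (SE 0.22) and 0.53 (SE 0.16) had adjusted p of 0.124 and 0.161, and of 0.0114 and 0.0408 with the block of numbers 2, 4 and 5. Kif2c, a microtubule depolymerase, had the largest p of the group in N1c. It read 47.3, 52.0, 32.0 and 41.3 in control, 61.4, 66.4, 41.1 and 53.4 in N1c, 54.6, 55.5, 68.1 and 39.6 in RBPJdel and 48.0, 44.6 and 50.1 in N1c_RBPJdel, with a difference of 0.36 (SE 0.17, adjusted p = 0.622). Nusap1, Tpx2 and Hmmr, which organise spindle microtubules, had N1c differences of 1.07, 0.92 and 0.64, with adjusted p of 0.201, 0.198 and 0.185, or of 0.011, 0.0113 and 0.0384 with that block. In N1c_RBPJdel against N1c they stood at -1.18, -0.98 and -0.60, none past the test.

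Mki67, which encodes the Ki-67 antigen used to count dividing cells, read 271, 255, 119 and 158 in control, 630.1, 559, 244 and 551 in N1c, 441, 545, 515 and 137 in RBPJdel and 207, 270.2 and 259 in N1c_RBPJdel. N1c 1, N1c 2, N1c 5 and RBPJdel 1 to 3 lay above all control arrays, while N1c 4 and RBPJdel 4 did not. The change was 1.29 in N1c (SE 0.38, adjusted p = 0.137, or 0.00295 with the block of numbers 2, 4 and 5). It was 0.92 in RBPJdel (SE 0.38, adjusted p = 0.667) and -0.94 in N1c_RBPJdel against N1c (SE 0.42, adjusted p = 0.159).

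**Figure D4:**
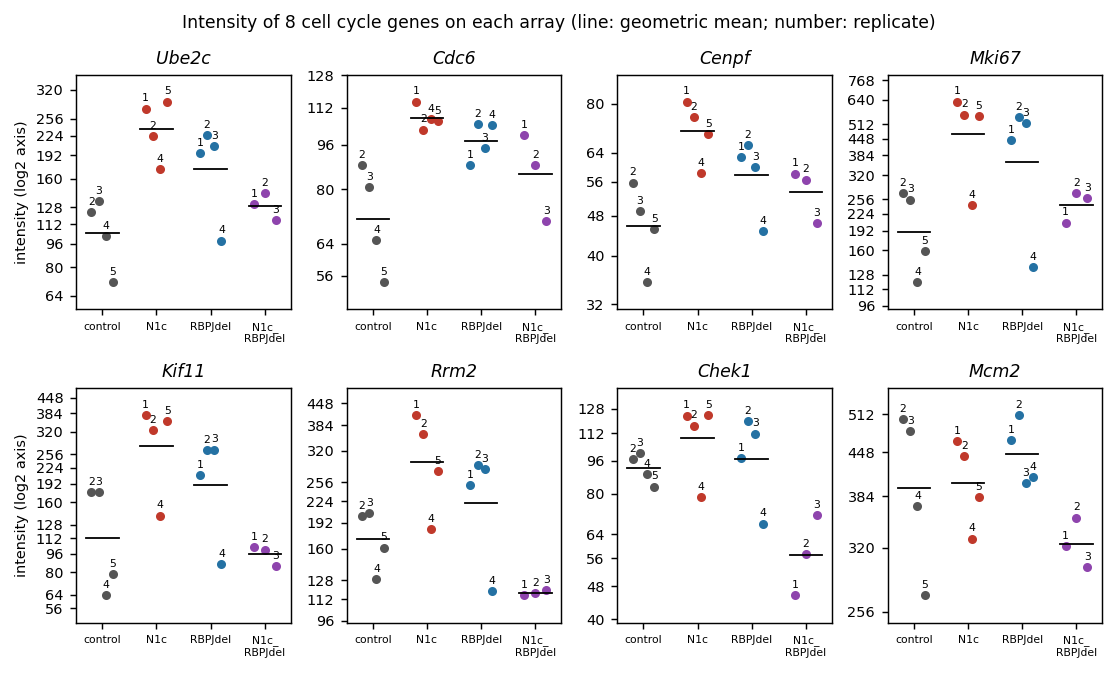
Intensity on a log2 axis of 8 cell cycle genes on each of the 15 arrays (points, with the replicate number), with a line at the geometric mean of the group. Every N1c array exceeds every control array for Ube2c, Cdc6 and Cenpf, the 3 N1c_RBPJdel arrays of Rrm2 lie between 115 and 119, and the array numbered 4 is low in N1c and RBPJdel for Mki67, Kif11, Rrm2 and Chek1.

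Other genes of the cycle were read from 6 further lists. Of 58 other mitosis genes, 5 rose in N1c (median change 0.35), against 0.937% of all genes. Of 40 other S phase genes none did (median 0.14). The 5 were the Cdk-binding subunits Cks1b and Cks2, the Cdk phosphatase Cdkn3, the cohesin protector Sgo1 and the mitotic gene Depdc1a. Cks2 rose by 0.75 (adjusted p = 0.0375), Cdkn3 by 0.64 (adjusted p = 0.0185), Sgo1 by 0.60 (adjusted p = 0.0418) and Depdc1a by 0.77 (adjusted p = 0.0447). Without single arrays Cks1b kept its call throughout, while Cdkn3 lost it under 4 omissions, Cks2 under 7 and Sgo1 under 12. The call of Depdc1a was not followed through these omissions. Cks1b had the smallest p among them and read 195, 200.4, 139.6 and 199 in control, 368, 363, 289.8 and 450.0 in N1c, 234, 259.9, 264 and 191 in RBPJdel and 274, 272 and 198 in N1c_RBPJdel. It rose by 1.00 (SE 0.16, adjusted p = 0.00122), with all N1c arrays above all control arrays. Among the S phase genes the smallest p belonged to the histone chaperone Asf1b, at 0.79 (SE 0.23, adjusted p = 0.125). In RBPJdel against control no gene of the 6 lists was called, against 0.0354% of all genes higher and 0.0759% lower.

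Few regulators of G1 passed the test in N1c, where 0.937% of all genes were called higher and 0.714% lower. None of the 5 genes of D-type cyclins, Cdk4 and Cdk6 was called (median -0.02), with the smallest p for Ccnd3 (-0.47, adjusted p = 0.838). Of 6 Cdk inhibitors only Cdkn2c, which encodes the Cdk4 and Cdk6 inhibitor p18, rose. Cdkn2c read 171, 142, 174 and 161 in control, 242, 249.98, 278 and 300.4 in N1c, 166, 205, 209.5 and 169 in RBPJdel and 176, 165 and 178 in N1c_RBPJdel. The rise was 0.72 (SE 0.11, adjusted p = 0.00057), and the N1c arrays stood clear of all others. Of 17 pocket protein, E2F, DREAM and MuvB genes only E2f3, an activating E2F, rose, by 0.69 (SE 0.12, adjusted p = 0.00309). E2f3 read 161, 157, 132 and 157 in control, 277, 229, 204 and 274 in N1c, 182, 143, 178 and 142 in RBPJdel and 130.1, 128 and 121 in N1c_RBPJdel. None of 9 quiescence genes was called (median -0.22), with the smallest p for Txnip (-0.50, adjusted p = 0.0825).

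In N1c_RBPJdel against N1c, 4.65% of all genes fell past the threshold. Of the other lists, 14 of 58 mitosis genes fell (median -0.38), 4 of 40 S phase genes (median -0.27) and 3 of 17 E2F and DREAM genes. So did 1 of 6 Cdk inhibitors, 1 of 5 G1 cyclin and kinase genes and 2 of 9 quiescence genes. By p the first 6 were E2f3 (-0.95, adjusted p = 0.000179), the S phase kinase activator Dbf4 (-0.74, adjusted p = 0.00141), Cdkn2c (-0.62, adjusted p = 0.00286), the clamp loader subunit Rfc4 (-1.03, adjusted p = 0.00331), the condensin subunit Smc2 (-0.94, adjusted p = 0.00333) and the antiproliferative gene Btg1 (-0.57, adjusted p = 0.00496). Against control, 3 of 9 quiescence genes fell, beside 5.12% of all genes, with Foxo1 (-0.61, adjusted p = 0.00529) and Btg1 (-0.46, adjusted p = 0.019) first by p. Cdk6 (-0.60, adjusted p = 0.0222), the condensin subunit Smc4 (-0.71, adjusted p = 0.0261), the pocket protein Rbl1 (-0.37, adjusted p = 0.0332) and Dbf4 (-0.44, adjusted p = 0.0355) fell too. Against RBPJdel, Foxo1 (-0.47, adjusted p = 0.0377), E2f2 (-0.47, adjusted p = 0.04) and Rfc4 (-0.77, adjusted p = 0.0436) fell, beside 0.967% of all genes. No gene of the 6 lists rose against control or against RBPJdel, where 3.77% and 1.32% of all genes did.

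**Figure D5:**
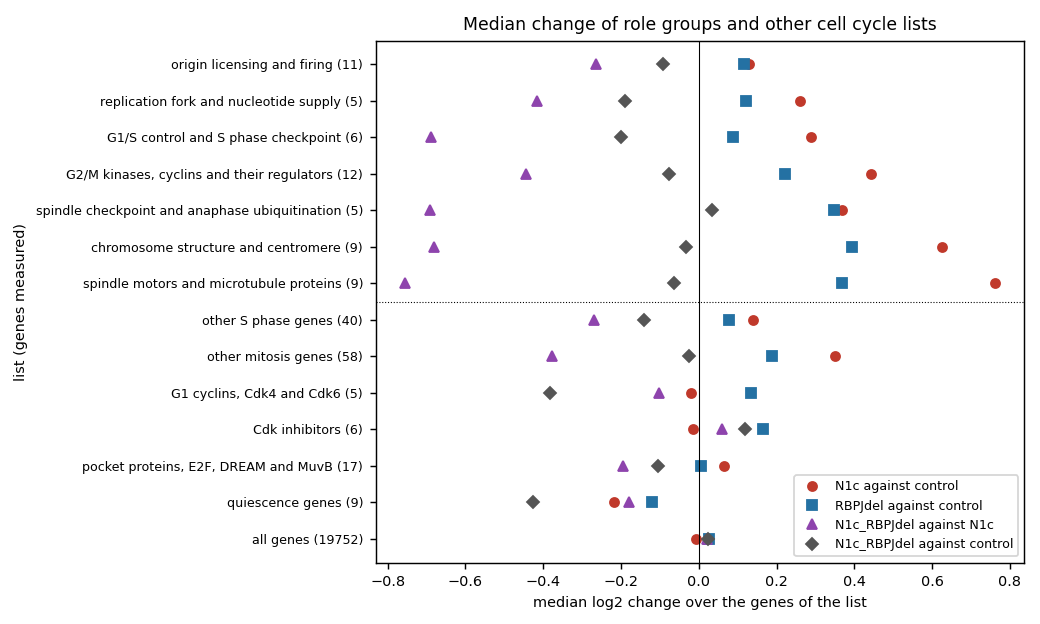
Median log2 change of each role group of the cell cycle genes and of 6 other cell cycle lists, in 4 comparisons, with the median of all genes in the last row. In N1c against control the medians run from 0.13 for licensing to 0.76 for spindle genes, and the other mitosis list lies at 0.35 and the other S phase list at 0.14.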

How the data were processed

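RNA of sorted splenic Treg was read on 15 arrays. The deposited values are intensities on a linear scale, 1 per transcript cluster. The submitters' processing notes name RMA and Affymetrix Power Tools, without versions, so background correction and scaling between arrays took place before deposit as far as RMA includes them. The platform annotation gave 1 gene for 21425 of 24922 features, several for 1399 and none for 2098, and the latter were not used. The brightest feature stood for a gene with several (921 of 19752 genes, 2 of the members). Values were taken to log2 without further scaling and fitted with limma 3.58.1 (R 4.3.3) as 1 mean per genotype over all 15 arrays, with Benjamini-Hochberg adjustment over all 19752 genes and a threshold of 0.05, two-sided. The script was tested on simulated data. Arrays correlated at 0.957 to 0.996.

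The members and all gene lists were chosen with earlier results of these data known. Values by array are given for members called in any comparison, for the 12 with the smallest p in N1c against control, and within each role for the 2 with the smallest and the 1 with the largest p there; from other lists, for up to 6 called genes per comparison and the smallest-p gene of each list. Promoters to print were picked after their motifs were seen.

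The labels number the arrays. Residuals of N1c and control arrays with the same number correlated at 0.417, 0.341 and 0.497 over all genes (numbers 2, 4 and 5). From these correlations, and not from any label, these numbers were taken to pair the samples. RBPJdel and control (0.166, 0.0711 and 0.417 at numbers 2, 3 and 4) and the pairs with N1c_RBPJdel were not taken as paired. At number 4 the value of RBPJdel and control nevertheless exceeded that of N1c and control. Over the 58 cell cycle genes alone, N1c and control correlated at 0.437, 0.733 and 0.121 (numbers 2, 4 and 5). RBPJdel and control correlated at 0.656, 0.583 and 0.779 (numbers 2, 3 and 4). For these genes the numbers thus linked RBPJdel to control at least as closely as N1c to control. Adjusted p with the block of numbers 2, 4 and 5 rest on the inferred pairing of N1c with control. Since that pairing was chosen from the same residuals, p from this fit can be too small. That fit leaves few residual degrees of freedom. Alternatives were quantile normalization, median centring, the mean of a gene's features, genes above the median intensity only, the replicate block, an intensity trend, array weights, each array left out, and the arrays of 2 groups only. A fit of the arrays numbered 1 to 3 alone was added after the data were seen. It holds only control 2 and control 3, and N1c 1 and N1c 2, of those groups.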

Additional observations from a re-analysis of the deposited data

Results flagged for a closer look

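Dixon's ratio of a single array was above its 95% critical value in 11 of 177 sets of 4 arrays tested over the cell cycle genes. The count is near the share of about 1 in 20 that chance gives. All 11 were the low array of their set, and all except control 5 were numbered 4. The sets reuse the same arrays and the genes move together, so the 11 are not separate findings. RBPJdel 4 was the low array in 6 of the 11. It read 75.5 for Ccna2 against 352 to 462 on the other 3, 98.4 for Ube2c against 196 to 224, 137 for Mki67 against 441 to 545, 119 for Rrm2 against 251 to 289, 150.1 for Tk1 against 209.7 to 212 and 194 for Ccne1 against 247 to 257. N1c 4 was the low array in 4. It read 139.9 for Kif11 against 324 to 378, 244 for Mki67 against 551 to 630.1, 78.6 for Chek1 against 117 to 124 and 135 for Aurkb against 197 to 208. Control 5 read 202 for the licensing factor Cdt1, against 311 to 333 on the other control arrays. Without RBPJdel 4 the number of members called higher in N1c was 9 in place of 3, and without N1c 4 it was 7. Over all genes the numbers called higher were 201 and 164, in place of 185.

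By the limma interaction term, the effect of active Notch1 was lower with RBPJ deleted in 3 of 58 members, against 0.521% of all genes. These were Rrm2 (-1.71, adjusted p = 0.0469), Ube2c (-1.60, adjusted p = 0.0410) and Kif4 (-1.43, adjusted p = 0.0459). All 3 calls were lost without control 4, without N1c 1 or without RBPJdel 1, among other single omissions. The term includes the N1c_RBPJdel arrays, for which sorter and genotype cannot be told apart. Among the other cycle genes the same term was past the threshold for E2f3 (-1.03, adjusted p = 0.00673), Cdkn2c (-0.83, adjusted p = 0.0126), Asf1b (-1.70, adjusted p = 0.0213), Rfc4 (-1.22, adjusted p = 0.0346), the centromere gene Cenpm (-1.10, adjusted p = 0.0353) and Cdkn3 (-0.93, adjusted p = 0.0381). E2f3 and Cdkn2c kept this call whichever array was left out. E2f3 lost it with the mean of a gene's features and Cdkn2c with the arrays numbered 1 to 3 alone.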

How the results depend on the processing

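No value past the threshold changed sign under the alternatives run. The median change of the members never moved by more than the pooled SD between arrays (0.264). That bar is about as wide as the median change in RBPJdel and wider than that of N1c_RBPJdel against control. Staying within it therefore does not show those 2 medians to be stable. With single arrays left out the median change ranged from 0.32 to 0.51 in N1c and 0.19 to 0.43 in RBPJdel, both against control. It ranged from -0.66 to -0.45 in N1c_RBPJdel against N1c. In N1c_RBPJdel against control it ranged from -0.16 to 0.03, and its sign turned without control 2 or control 3. Counts of calls moved, and the cause was not tested. Members called higher in N1c were 3, and 1 with median centring, 26 with the replicate block, 21 with the block of numbers 2, 4 and 5 only, 10 with array weights, 9 with arrays 1 to 3 only and 0 to 9 with an array left out, while all genes higher went from 185 to 285 with the block, 362 with array weights and 123 with arrays 1 to 3. Members lower in N1c_RBPJdel against N1c were 17, and 43 with the replicate block, 5 with array weights, 42 with arrays 1 to 3 only and 4 to 31 with an array left out. All genes called lower there moved from 918 to 1904 with the block, 844 with array weights and 1579 with arrays 1 to 3, and median centring turned the split of all genes higher and lower from 905 and 918 to 752 and 1151. Against control there was 1, and 0 with brighter genes only, 18 with the block, 15 with arrays 1 to 3 only and 0 to 1 with an array left out, while all genes lower went from 1012 to 2172 with the block and 1163 with arrays 1 to 3. Against RBPJdel there was 1, and 3 with quantile normalization, 0 with brighter genes only or only the 2 groups, 31 with the block, 32 with arrays 1 to 3 only and 0 to 8 with an array left out, while all genes lower went from 191 to 1189 with the block and 546 with arrays 1 to 3. The interaction had 3, and 5 with quantile normalization, 37 with the block, 26 with arrays 1 to 3 only and 0 to 25 with an array left out, while all genes lower went from 103 to 344 with the block and 126 with arrays 1 to 3. RBPJdel against control had 0 in each. The block over all groups also ties groups whose numbers were not taken as paired. The fit of arrays 1 to 3 leaves out every array numbered 4 or 5. Among these were the arrays with the lowest member level in control, N1c and RBPJdel. With brighter genes only, 32 members remain in the fit. A group of 3 or 4 arrays limits the precision of every value here.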
